A study of Mus musculus with 10 samples.

Results

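The promoters of 10 imprinted genes whose maternal copy is methylated were examined in spermatozoal DNA: Peg3, Nnat, Peg10, Zrsr1, Impact, Mcts2, Nap1l5, Airn, Snurf and Peg13. They were listed by name, and each was represented by the CpGs within 1 kb on either side of its gene start in the GENCODE annotation of the mouse genome (mm10, GRCm38). With both strands of a CpG summed and at least 10 reads required in each of the 10 samples, the promoters held 142 of the 904364 CpGs so covered in the whole series. In any sample, 211 of 1342754 CpGs reached 10 reads. Every promoter had between 5 and 37 shared CpGs. The methylation level of a promoter was the mean percentage of methylated reads over its shared CpGs.

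DNA was prepared from epididymal spermatozoa of male C57Bl/6 mice and analysed by reduced representation bisulfite sequencing (RRBS), in which DNA is cut with the enzyme MspI at CCGG and unmethylated cytosines are converted before sequencing. In the P-generation, injections into the peritoneum began when the mice were 7 weeks old and were given on 3 occasions in each of 7 weeks. C8 and C14 were the vehicle group, given 7.5% DMSO in phosphate-buffered saline alone. The drug group, D10, D11 and D13, was given 0.1 mg/kg of decitabine, also with 7.5% DMSO. Decitabine (5-aza-2'-deoxycytidine) is a cytidine analogue that blocks DNA methyltransferases. The F3-generation was not treated and was bred through males mated with untreated females: F3C9 descended from C8, F3C30 from C14, F3D1 and F3D31 from D10, and F3D7 from D11. Spermatozoa had been collected by mincing the epididymides, and their purity had been examined by flow cytometry in a subset of P-generation animals. In that subset the study found that most but not all cells were spermatozoa, with nearly equal shares between treatment groups.

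In imprinted genes, one parental copy is silenced by DNA methylation laid down in the germ line. At maternally methylated promoters the mark is set in the oocyte and is lacking in the sperm, so the paternal copy is the one expressed. Somatic cells carry one methylated and one unmethylated copy, and spermatozoa carry almost no methylation at these regions.

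The summed coverage of CpG cytosines ranged from 48903817 in D13 to 115158278 in F3D1. At the 142 CpGs the median number of reads was between 39 and 69.5 per sample, and the lowest was 10. C8 stood apart from the other animals. Of the 95461 CpGs of the series with a mean level between 5 and 40%, C8 had exactly 0% at 22.8% and more than 50% methylation at 12.7%, whereas the other 9 animals had between 3.67 and 13.5% at 0 and between 0.427 and 5.86% above 50%. The averages, the order of the promoters and the P-generation comparisons are therefore also given without it. All comparisons between animals rest on 2 or 3 animals per group, and reads carried no molecular identifiers, so that copies of 1 molecule could not be told from separate molecules.

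With the strands kept apart, the cytosines with at least 10 reads in all 10 samples lay in 32 MspI fragments of 29 to 178 bp. The shared CpGs of Peg13 at 208 and 218 bp downstream met the read minimum only with the strands summed and lay outside them. The following fragments, taken from GRCm38 on the plus strand with every CpG in capitals, are shown because the differences between animals, strands or groups described with the results lay in them. They do not overlap an annotated untranslated region.
Mcts2, chr2:152686854-152686980, upstream of the gene start: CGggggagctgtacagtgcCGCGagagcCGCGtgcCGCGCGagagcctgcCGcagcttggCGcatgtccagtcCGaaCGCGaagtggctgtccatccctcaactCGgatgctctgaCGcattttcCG
Nap1l5, chr6:58906634-58906769, in the coding sequence: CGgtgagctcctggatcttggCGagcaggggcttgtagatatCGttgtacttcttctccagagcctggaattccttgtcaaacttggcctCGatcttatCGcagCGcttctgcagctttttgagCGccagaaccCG
Nap1l5, chr6:58906768-58906878, the adjoining fragment: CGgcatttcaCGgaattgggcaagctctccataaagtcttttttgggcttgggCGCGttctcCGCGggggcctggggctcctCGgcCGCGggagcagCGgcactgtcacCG
Airn, chr17:12741590-12741750, in introns of Airn and Igf2r: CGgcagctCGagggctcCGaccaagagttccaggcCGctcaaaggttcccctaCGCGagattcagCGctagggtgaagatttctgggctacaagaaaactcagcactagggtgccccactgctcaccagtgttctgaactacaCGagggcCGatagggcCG
Snurf, chr7:60004580-60004651, in an intron of Snurf and Snrpn: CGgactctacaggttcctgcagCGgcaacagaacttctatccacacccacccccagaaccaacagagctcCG
Zrsr1, chr11:22971902-22972000, just upstream of the gene start: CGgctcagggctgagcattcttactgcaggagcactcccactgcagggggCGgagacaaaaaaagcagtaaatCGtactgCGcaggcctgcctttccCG
The 127 bp fragment of Mcts2 holds 16 CpGs, of which 14 were measured on at least 1 strand in all samples. The 72 bp fragment of Snurf holds 3, among them the single CpG called between groups in the F3-generation.

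Methylation was low at all 10 promoters but higher than at most gene starts. Averaged over the 10 samples, it was 15.9% in Peg3, 15.6% in Nnat, 15.2% in Snurf, 15.0% in Nap1l5, 14.2% in Mcts2, 13% in Zrsr1, 12.7% in Airn, 12.1% in Peg13 and 12.1% in Peg10. Neighbours in this order differed by less than the spread between animals, since the SD over the 10 samples lay between 4.37 percentage points in Peg13 and 8.85 in Nap1l5. Impact followed at 2.26% (SD 1.25) and was the lowest of the 10 promoters in 8 of 10 samples. The exceptions were C8 and D11, in which Airn was lower. Without C8 the order was Nnat (15.0%), Snurf and Airn (14.1% each), Nap1l5 (13.7%), Peg3 (13.6%), Zrsr1 (12.7%), Mcts2 (12.2%), Peg13 (11.2%), Peg10 (10.6%) and Impact (2.45%), so that Peg3 moved down and Airn up. Over all 18444 promoters with at least 3 shared CpGs the median level was 1.13%, 77.7% of promoters lay under 5%, and 6.10% lay between 5 and 20%.

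**Figure D1:**
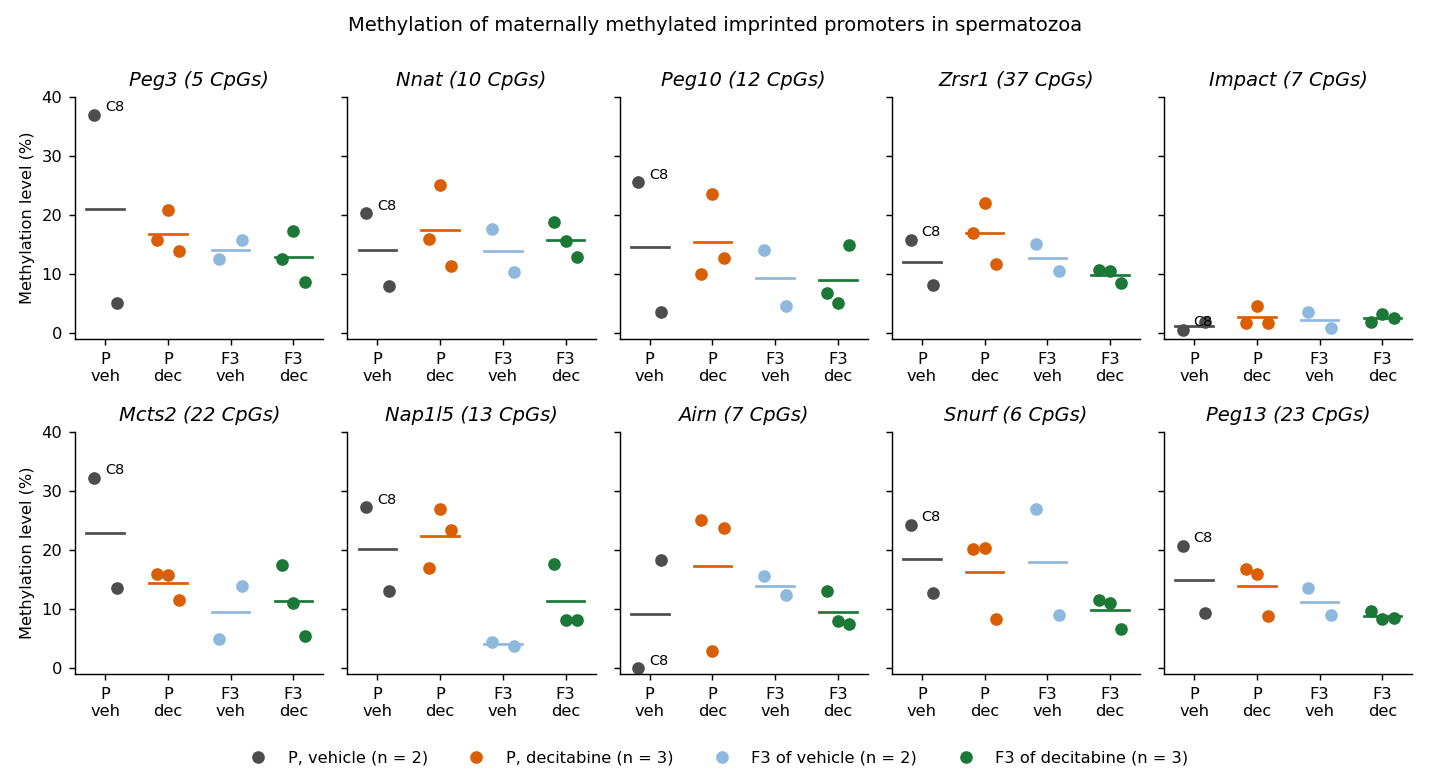
Methylation level (%, vertical axis) of each imprinted promoter in each animal (points) by group on the horizontal axis (P or F3-generation, vehicle or decitabine); horizontal bars are group means, and the number of CpGs is given above each panel. C8 is labelled: it is the highest sample in Peg3 (36.9%), Peg10, Mcts2, Nap1l5 and Peg13 and the lowest in Airn (0%) and Impact.

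Peg3, which encodes a zinc-finger protein and lies on chromosome 7 with its start at 6730431 on the minus strand, was measured by 5 CpGs between 104 and 169 bp downstream of the start, in an annotated untranslated region (chr7:6730262-6730327). Its level was 36.9% in C8 and 5.11% in C14, 15.7, 20.8 and 13.9% in D10, D11 and D13, 12.5 and 15.7% in F3C9 and F3C30, and 12.5, 17.3 and 8.70% in F3D1, F3D7 and F3D31. The vehicle animals of the P-generation were thus the highest and the lowest of all samples, and both decitabine groups lay between them. Among the CpGs, the one at 104 bp had the highest mean, 21%, with 4.08% in C14 and 56.2% in C8, and the one at 169 bp the lowest, 14.3%.

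Peg10, a gene derived from a retrotransposon, starts on chromosome 6 at 4747306 and was measured by 12 CpGs 49 to 183 bp downstream (chr6:4747355-4747489). The level was 25.5% in C8 and 3.52% in C14, 10.1, 23.5 and 12.7% in D10, D11 and D13, 14.1 and 4.5% in F3C9 and F3C30, and 6.84, 5.13 and 14.9% in F3D1, F3D7 and F3D31. C8 and D11 were high, and the other samples lay under 15%. The CpG at 183 bp had the highest mean (21.2%, from 6.25% in C14 to 43.8% in C8) and the one at 92 bp the lowest (7.93%, from 0% in C8 to 30% in D11), so that C8 was at the top of one and at the bottom of the other.

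Snurf shares its promoter with Snrpn, a gene for a splicing protein, and starts on chromosome 7 at 60005049 on the minus strand. Its 6 CpGs lay from 179 bp upstream to 469 bp downstream. Snurf was 24.3% methylated in C8 and 12.8% in C14, 20.3, 20.4 and 8.30% in D10, D11 and D13, 27.0 and 9.10% in F3C9 and F3C30, and 11.6, 11.1 and 6.76% in F3D1, F3D7 and F3D31. F3C9, a descendant of C8, was the highest. The highest mean was found at the CpG at 469 bp (17.9%, from 0% in D13 to 50% in F3C9) and the lowest at 150 bp upstream (12.5%).

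Impact encodes a regulator of translation and starts on chromosome 18 at 12955852. Its imprinted methylation is known from a CpG island in the first intron and not from the start of the gene. All 7 CpGs with reads lay between 105 bp upstream and 79 bp downstream. The level was 0.536% in C8 and 1.8% in C14, 1.74, 4.65 and 1.77% in D10, D11 and D13, 3.53 and 0.859% in F3C9 and F3C30, and 1.91, 3.24 and 2.53% in F3D1, F3D7 and F3D31. No sample reached 5%. The CpG means ran from 0.328% at 57 bp downstream to 5.07% at 34 bp upstream. Around the other annotated transcript starts of Impact, 15 CpGs located 16346 to 17653 bp downstream had levels between 4.95% in F3D31 and 21.5% in D11, but these do not belong to the window of the gene start.

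The next 4 genes each lie inside an intron of a larger host gene. Nnat, a small membrane proteolipid gene in an intron of Blcap, starts on chromosome 2 at 157560078 and was measured by 10 CpGs in 2 clusters, 504 to 469 bp upstream and 196 to 233 bp downstream. Its level was 20.2% in C8 and 8.05% in C14, 15.9, 25 and 11.4% in D10, D11 and D13, 17.5 and 10.3% in F3C9 and F3C30, and 18.8, 15.6 and 12.8% in F3D1, F3D7 and F3D31. D11 was the highest and C14 the lowest. The CpG at 469 bp upstream had a mean of 21.1% and ranged from 0% in D13 to 47.8% in D11, while the CpG at 233 bp downstream had the lowest mean, 11.8%.

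Zrsr1, a retrogene in an intron of Commd1, starts on chromosome 11 at 22972005 and had the densest coverage, 37 CpGs from 142 bp upstream to 987 bp downstream. Levels were 15.8% in C8 and 8.20% in C14, 17.0, 22.0 and 11.6% in D10, D11 and D13, 15.1 and 10.5% in F3C9 and F3C30, and 10.7, 10.6 and 8.43% in F3D1, F3D7 and F3D31. Every sample lay between 8.20 and 22.0%, although single CpGs varied far more. At 529 bp downstream the mean was 29.0% (from 4.55% in F3D7 to 60.0% in D13, on 10 to 57 reads), and at 620 bp downstream it was 1.94% (from 0 to 8.70%), the latter in a fragment that lay under 10% in every sample. The Zrsr1 fragment printed above ranged from 8.16 to 32.3%, with the highest level in D11.

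Mcts2, a retrogene in an intron of H13, starts on chromosome 2 at 152687035 and was measured by 22 CpGs from 225 bp upstream to 113 bp downstream. The level was 32.2% in C8 and 13.6% in C14, 16.0, 15.8 and 11.6% in D10, D11 and D13, 4.98 and 14% in F3C9 and F3C30, and 17.5, 11 and 5.57% in F3D1, F3D7 and F3D31. C8 was the highest, followed by F3D1. Within the promoter, however, C8 had 0% at the CpG with the highest mean, 113 bp downstream (19.3%, up to 43.6% in D10), and 0% also at the one with the lowest mean, 225 bp upstream (9.16%).

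Nap1l5, a retrogene of the nucleosome assembly protein family in an intron of Herc3, starts on chromosome 6 at 58907076 on the minus strand and was measured by 13 CpGs in its coding sequence, 199 to 352 bp downstream. The level was 27.3% in C8 and 13.1% in C14, 16.9, 26.9 and 23.4% in D10, D11 and D13, 4.51 and 3.74% in F3C9 and F3C30, and 17.6, 8.27 and 8.28% in F3D1, F3D7 and F3D31. All P-generation samples except C14 and D10 lay above 20%, and the F3 vehicle descendants were the lowest of the 10. The CpG means ran from 9.81% at 211 bp to 22.8% at 338 bp, the latter from 7.84% in F3C30 to 60.0% in C8.

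The last 2 genes produce long non-coding RNAs. Airn, the antisense transcript that silences Igf2r on the paternal chromosome, starts in an intron of Igf2r on chromosome 17 at 12741311, and its 7 CpGs lay on 1 fragment 279 to 438 bp downstream. Its level was 0% in C8 and 18.4% in C14, 25.1, 3.01 and 23.8% in D10, D11 and D13, 15.6 and 12.4% in F3C9 and F3C30, and 13.1, 7.97 and 7.45% in F3D1, F3D7 and F3D31. The samples that were high at most other promoters, C8 and D11, were the lowest here. Each CpG of Airn had between 14 and 20 reads in C8. A count of 0 of 14 reads allows a level of up to 21.4%, a limit that covers counting error only. The CpG at 279 bp had the highest mean (15.2%, up to 39.1% in D13) and the one at 429 bp the lowest (11.1%).

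Peg13, which lies in an intron of Trappc9, starts on chromosome 15 at 72810324 on the minus strand and was measured by 23 CpGs between positions -699 and 624 bp relative to the start. The level was 20.7% in C8 and 9.36% in C14, 16.8, 15.9 and 8.92% in D10, D11 and D13, 13.6 and 9.10% in F3C9 and F3C30, and 9.75, 8.33 and 8.62% in F3D1, F3D7 and F3D31. C8, D10, D11 and F3C9 were the highest, and the other 6 samples lay between 8.33 and 9.75%. The CpG at 558 bp had a mean of 20.7% (from 10.0% in F3D31 to 39.5% in D11), and the one at 444 bp had 5.50%.

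**Figure D2:**
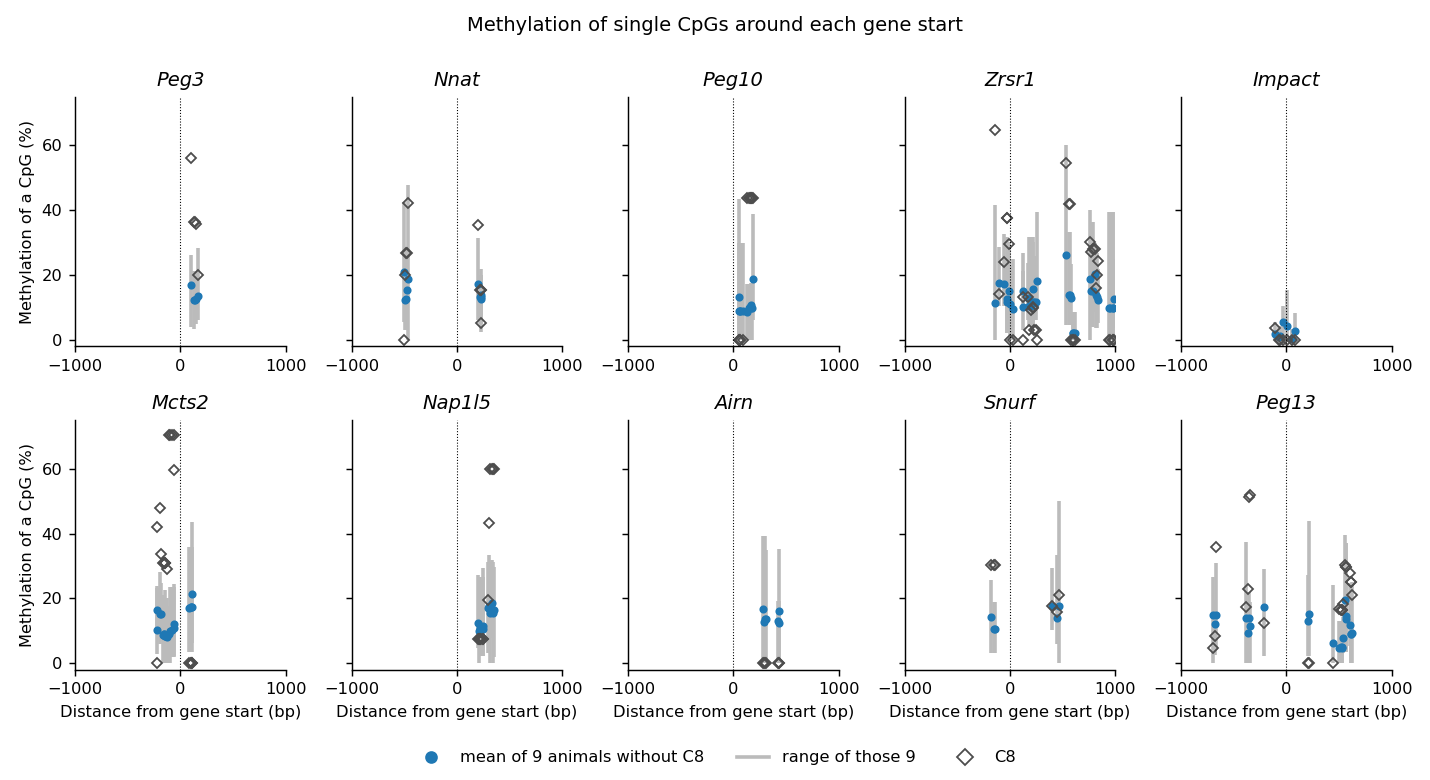
Methylation (%, vertical axis) of each shared CpG against its distance from the gene start in bp (negative is upstream) for the 10 promoters; blue points are means of the 9 animals without C8, grey bars their range, and open diamonds C8. The diamonds of C8 lie at 0% in some stretches, such as all CpGs of Airn, and at 60 to 70.4% in others, such as parts of Nap1l5 and Mcts2.

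The values were examined further by MspI fragment and strand, because neighbouring CpGs of a fragment share reads, while reads of the plus and the minus strand come from different DNA strands. Within a fragment and strand, the CpGs of a sample differed little. The median SD over the 33 strands with at least 3 CpGs was between 0 in C8 and 2.40 percentage points in D13. Between fragments the spread was larger: the SD over the 32 fragments was 17.1 percentage points in C8, 10.9 in D11 and between 4.22 in F3D31 and 9.44 in D13 in the remaining animals. C8 had 7 fragments under 1% and 7 above 30%, whereas C14 had 0 of each.

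The mean levels of the strands of a single fragment also differed. Often each strand was measured at other CpGs, and strand and position in the fragment cannot then be told apart. In the Mcts2, second Nap1l5 and Airn fragments printed above, 14, 9 and 7 cytosines lay at 14, 9 and 7 CpGs. No CpG of these fragments was thus measured on both strands. Over the 21 fragments with both strands measured, the median gap between the strands was 19.7 percentage points in C8, 12.3 in D11 and 3.07 in C14, and between 3.76 and 8.70 in the other animals. In C8 the Mcts2 fragment printed above was 30.6% methylated on the plus strand and 70.4% on the minus strand, and the 124 bp fragment around the gene start had 0%. The first Nap1l5 fragment had 68.0% in C8 on the measured strand, and the adjoining one had 19.4% (plus strand) and 7.41% (minus strand). In C14 the same strands of Nap1l5 had 17.4, 10.4 and 11.3%. The Airn fragment had 5.26% (plus strand) and 0% (minus strand) in D11, against 0 and 18.6% in F3D7. The number of DNA molecules behind these reads was not measured.

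**Figure D3:**
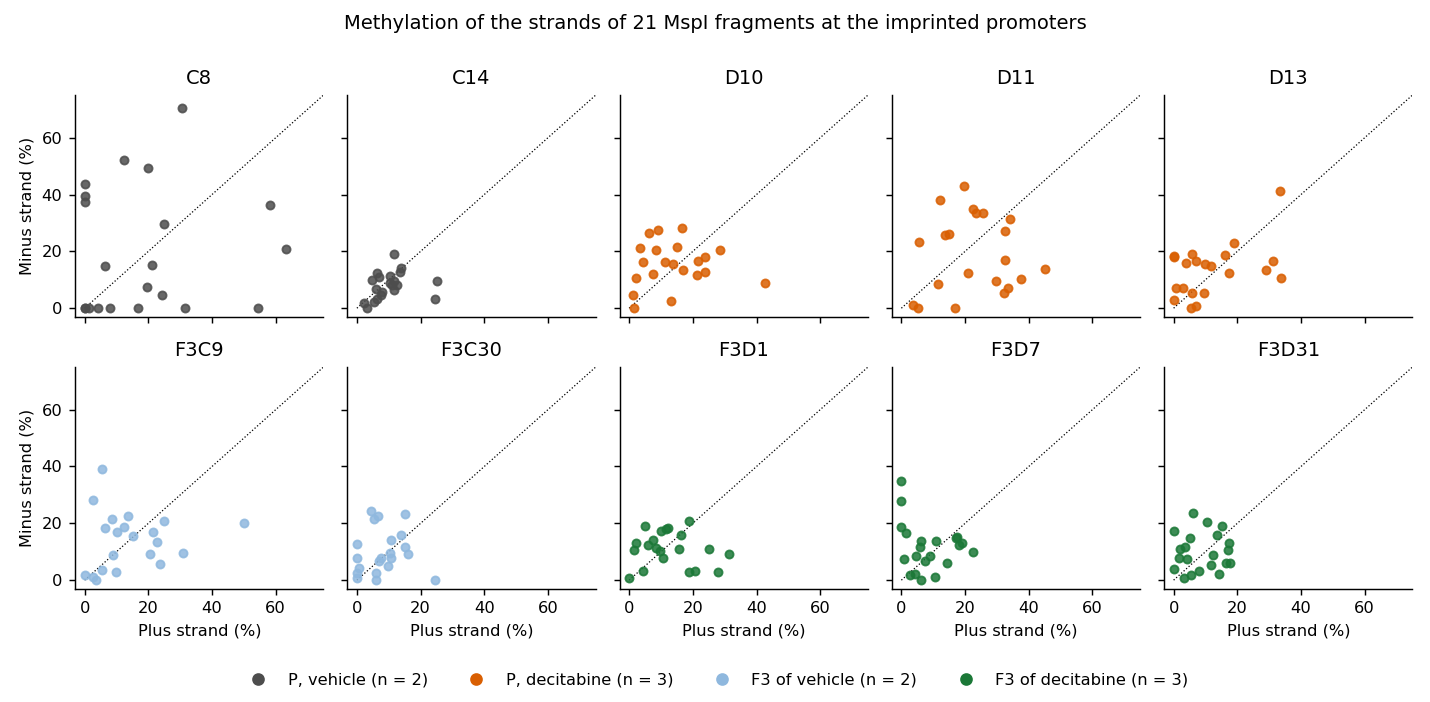
Mean methylation (%) of the minus strand (vertical axis) against the plus strand (horizontal axis) for the 21 MspI fragments with both strands measured, in 1 panel per animal coloured by group; the dotted line marks equal strands. Most points of C14 lie near the line, with a median gap of 3.07 percentage points and a largest of 21.1. Points of C8 lie partly on an axis and partly away from both, with a median gap of 19.7 and a largest of 54.4. The strands of a fragment were often measured at different CpGs.

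Averaged over the 10 promoters, the level was 20.4% in C8 and 9.39% in C14, 15.6, 17.8 and 12.7% in D10, D11 and D13, 12.8 and 9.02% in F3C9 and F3C30, and 12.0, 9.85 and 8.41% in F3D1, F3D7 and F3D31. C8 and D11 had the highest means and F3D31 and F3C30 the lowest. Over the 10 samples, Pearson's r of a promoter with the mean of the other members was 0.913 for Peg13 and 0.801 for Zrsr1, and between 0.606 and 0.717 for Peg3, Nnat, Peg10, Mcts2, Nap1l5 and Snurf. It was -0.02 for Impact and -0.48 for Airn. Without C8 it ranged from 0.276 for Mcts2 to 0.927 for Zrsr1 in the former 8, and was 0.481 for Impact and -0.16 for Airn. These coefficients describe samples that each come from 1 library, and no p-value was attached.

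Other promoters that are methylated in somatic cells and unmethylated in sperm were examined for the same variation between samples. Among germ-line genes, whose promoters are methylated in somatic tissues (Dazl, Ddx4, Mael, Sycp3, Asz1, Hormad1 and Slc25a31, 7 of 8 listed having at least 3 CpGs and Stk31 having 0), the mean level was 27.7% in C8 and 15.3% in C14, 28.2, 29.2 and 22.5% in D10, D11 and D13, 24.0 and 12.6% in F3C9 and F3C30, and 21, 13.7 and 16.3% in F3D1, F3D7 and F3D31. Its r with the mean of the imprinted promoters was 0.907 over 10 samples and 0.951 over 9 without C8. None of the 7 was at 0 in any sample. The share of cells other than spermatozoa in each sample was not measured, its part in these levels was not tested, and fewer cells with a methylated copy cannot be told apart from less methylation per cell.

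The remaining lists served as a comparison. Promoters unmethylated in most cells (Actb, Gapdh, Hprt, Tbp and Ppia) had a mean between 0.765 and 1.44%, and the region 2000 to 4000 bp upstream of H19, which is methylated in sperm, had 84.7 to 100% on 2 CpGs. Of 6 further maternally methylated promoters, Kcnq1ot1, Plagl1, Slc38a4 and Grb10 had at least 3 CpGs, Mest had 0 and Nespas 2. Their mean lay between 5.23% in D13 and 18.3% in C8, and the C8 value held 55.6% in Slc38a4 beside 0% in Kcnq1ot1. Tnp1, the only gene with sperm-specific use that was covered, had 13.8 to 40.2% around its start, and Prm1 and Prm2 had 0 CpGs.

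**Figure D4:**
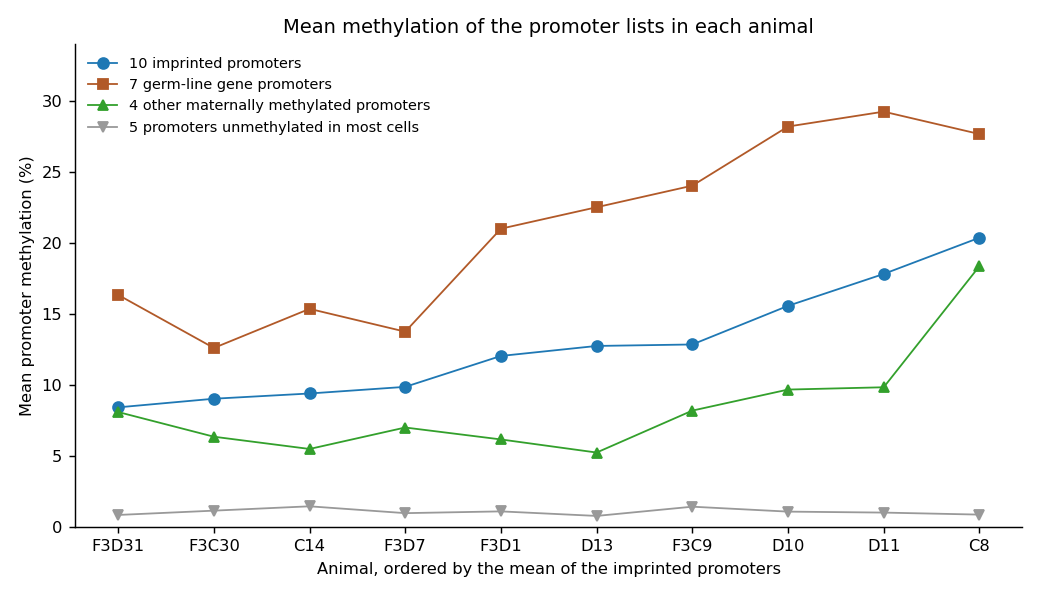
Mean methylation (%, vertical axis) of 4 lists of promoters in each animal, ordered along the horizontal axis by the mean of the imprinted promoters. The imprinted promoters rise from 8.41% in F3D31 to 20.4% in C8. The germ-line gene promoters range from 12.6% in F3C30 to 29.2% in D11, while the promoters unmethylated in most cells stay between 0.765 and 1.44%.

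The promoters whose levels followed the mean of the imprinted promoters most closely were sought among 1624 promoters with at least 5 CpGs, a range of at least 10 percentage points and a start more than 5000 bp from any member. They were Gm48084 (r = 0.980), Prr23a2 (0.976), Gm1070 (0.974), Gm1833 (0.974) and Pbp2 (0.964), and 325 of the 1624 had r above 0.8. Without C8 the coefficients of these 5 were 0.963, 0.970, 0.958, 0.961 and 0.942. Their levels were highest in C8, at 43.9 to 46.5%.

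The question whether decitabine altered the methylation of these promoters in the treated animals was addressed in the P-generation. The mean over the 10 promoters was 14.9% ± 7.76 (SD, n = 2) in vehicle and 15.4% ± 2.54 (n = 3) in decitabine treated animals, a difference of 0.495 percentage points. It was above 0 for 6 promoters and below 0 for 4, and ran from -8.43 points in Mcts2 to 8.12 in Airn. In 0 of 10 promoters were the groups without overlap, against 20.4% of all promoters. By limma on the log2 ratio of methylated to unmethylated counts, 0 of 10 imprinted promoters and 0 of 18444 promoters (0%) had an adjusted p under 0.05, and at an unadjusted p under 0.05 there were 0 and 1448. Without C8 the test was passed by 0 of 10 and 0 of 19085 promoters, and without C14 by 0 of 10 and 2.99% of 18455. The difference nearest to the threshold among the 10 was that of Impact, 1.34 ± 0.67 (SE) on the log2 ratio scale with a limma adjusted p of 0.665.

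The direction in the P-generation depended on which vehicle animal was used. Over the same CpGs, without C8 the 3 decitabine treated animals had a higher mean than C14 in 9 of 10 promoters (Airn excepted), by 5.98 percentage points on average. With the CpGs chosen anew, Airn was higher as well, by 3.90 points. Without C14 they exceeded C8 in 3 of 10, namely Zrsr1, Impact and Airn, and the average difference was -4.99 points. Among the 1125 promoters of the series with a mean level between 5 and 20%, 48.7% were higher in the decitabine treated animals, 68.0% without C8 and 38.0% without C14.

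At single CpGs, a logistic model with the reads of a group pooled called a CpG at a q-value under 0.01 and a difference of at least 25 percentage points. In the P-generation 0 of 146 CpGs of the imprinted promoters with at least 10 reads in all 5 animals were called, against 0.705% of all 934227 CpGs. Their median difference was 2.67 percentage points, with 97 CpGs higher and 48 lower in decitabine treated animals. Of all CpGs, 30.7% were higher and 32.4% lower, and the rest had a difference of exactly 0. The member counts and these shares are therefore not directly comparable. CpGs of a fragment share reads and are not independent. Pooling gives the animal with more reads more weight, and the signs changed when each animal counted equally. Of the 142 CpGs shared by all samples, 80 were then higher and 61 lower. All CpGs of the series were not counted in this way. In Peg10, 12 of 12 CpGs were higher with pooled reads and 6 of 12 with equal weights, and in Nap1l5 13 of 13 and 8 of 13. At a q-value under 0.01 and a difference of at least 10 points, 2 of the 146 CpGs were found, named here after their values were seen, against 2.13% of all CpGs. Both lay in Zrsr1, at 126 and 251 bp downstream, and were 10.8 and 12.6 points higher in the decitabine treated animals. Without C8, 0 CpGs of the imprinted promoters were called, against 0.258% of all CpGs. Without C14, where C8 alone stood for the vehicle group, 11 of 146 were called, against 4.43% of all CpGs, 7 in Mcts2, 2 in Peg13 and 1 each in Peg3 and Zrsr1, of which 10 were lower in the decitabine treated animals than in C8. With the variation between animals in the model, by a logistic model with overdispersion or by limma per CpG, 0 CpGs of the imprinted promoters and 0% of all CpGs were called. By the latter, 6 of 146 had an unadjusted limma p under 0.05 against 5.59% of all CpGs.

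In the F3-generation the comparison asked whether a difference was present in untreated descendants. The mean over the promoters was 10.9% ± 2.70 (n = 2) in vehicle descendants and 10.1% ± 1.82 (n = 3) in decitabine descendants, a difference of -0.83 percentage points, with 4 promoters higher and 6 lower. It was 1.08 points without F3C9 and -2.74 without F3C30. The groups did not overlap in 1 of 10 promoters, Nap1l5, against 18.3% of all promoters. There the decitabine descendants (17.6, 8.27 and 8.28%) all lay above the vehicle descendants (4.51 and 3.74%). The log2 ratio differed by 1.46 ± 0.51 (SE), with an unadjusted p of 0.0142 and an adjusted p of 0.999 by limma. An exact two-sided permutation test gave p = 0.3, where the smallest possible value is 0.1. Both tests counted F3D1 and F3D31, which share the ancestor D10, as separate replicates.

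No other member had an unadjusted p under 0.05 in the F3-generation, in which 0 of 18444 promoters (0%) passed and 534 had an unadjusted p under 0.05. The difference of the group differences between the generations was also tested by limma. The fit treated all animals as independent and did not use the descent of F3 animals from P-generation animals. It did not pass for any of the 10 promoters, and for Nap1l5 it was -0.93 ± 0.72 with an adjusted p of 0.877.

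**Figure D5:**
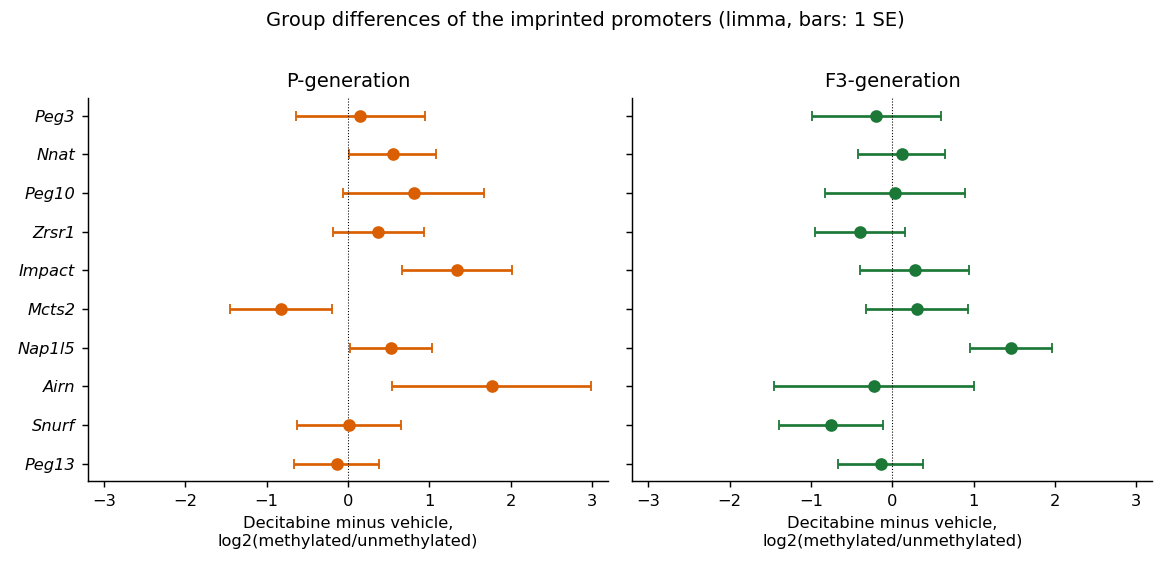
Difference between decitabine and vehicle animals on the log2 ratio of methylated to unmethylated counts (horizontal axis) for each imprinted promoter, in the P-generation (left, 3 against 2 animals) and the F3-generation (right, 3 against 2); points are limma estimates and bars 1 SE. The largest estimates are 1.77 ± 1.23 for Airn in the P-generation and 1.46 ± 0.51 for Nap1l5 in the F3-generation, and 0 of 20 passed the threshold.

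Of 182 CpGs tested in the F3-generation, 1 was called, against 0.237% of all 1054272 CpGs. It was the CpG of Snurf at 469 bp downstream (chr7:60004580), at the left end of the Snurf fragment printed above. It was methylated in 27 of 54 reads in F3C9 (50%, 95% Wilson interval 37.1 to 62.9%) and 7 of 48 in F3C30 (14.6%, 7.25 to 27.2%), and in 5 of 43 reads in F3D1, 2 of 34 in F3D7 and 4 of 76 in F3D31. Pooled, this was 33.3% against 7.19%, a difference of -26.1 percentage points with q = 7.33e-05. F3C9 alone was high, and without it 0 of 185 CpGs were called, against 0.0686% of all CpGs. With the variation between animals in the model, by overdispersion or by limma per CpG, 0 were called among these and 0% among all CpGs, and 17 of 182 had an unadjusted limma p under 0.05 against 5.09% of all CpGs. With pooled reads, 98 of the 182 CpGs were higher and 84 lower in decitabine descendants. Of all CpGs, 36.37% were higher and 31.01% lower, and the rest had a difference of exactly 0. With equal weights, 69 of the 142 shared CpGs were higher and 73 lower, again without a count over all CpGs. In Nap1l5, differences were above 0 at 16 of 16 CpGs with pooled reads and at 13 of 13 shared CpGs with equal weights. In Snurf they were above 0 at 5 of 10 and 0 of 6, respectively. The 13 CpGs of Nap1l5 lay on 2 adjoining fragments, and CpGs of a fragment share reads. The intervals cover counting error only.

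In the F3-generation 5 of 182 CpGs passed the q-value with a difference of 10 points or more, against 0.953% of all CpGs. Besides that of Snurf these were, named after their values were seen, 2 in Nap1l5 (13.3 and 11.4 points higher in decitabine descendants), 1 in Nnat at 504 bp upstream (20.8 points higher) and 1 in Zrsr1 at 5 bp downstream (decitabine minus vehicle -15.2 points). The Nnat CpG was called in place of that of Snurf when F3D31 was left out, with 29.2 points, where 0.288% of all CpGs were called.

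When each F3 animal was set beside its P-generation ancestor, the mean over the 10 promoters was lower in 5 of 5. It was 12.8% in F3C9 and 20.4% in C8, 9.02% in F3C30 and 9.39% in C14, 12.0 and 8.41% in F3D1 and F3D31 and 15.6% in D10, and 9.85% in F3D7 and 17.8% in D11. The number of promoters lower in the descendant was 7, 5, 6, 8 and 9 of 10, respectively. F3D1 and F3D31 share the ancestor D10, and the generations were sampled separately, so no test was attached. The study's pyrosequencing of sperm from more animals went the other way at the maternally methylated genes Mest, Lit1 and Snrpn. There the F3 vehicle group was higher than the P-generation vehicle group. The reason for this contrast was not tested. The mean of the germ-line gene promoters was lower in the descendant in the same 5 pairs. Their median, however, was higher in F3C9 (24.0%) than in C8 (20.8%) and lower in the other pairs. The mean of the other maternally methylated promoters was higher in F3C30 (6.34%) than in C14 (5.48%) and lower in the other pairs. Lower in all 5 descendants was also the median of the 1125 promoters with a mean level between 5 and 20%. It was, for example, 8.33% in F3D7 and 10.7% in D11, or 7.74% in F3C30 and 8.03% in C14.

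In the early embryo, methylation of imprinted regions is kept by the zinc-finger protein ZFP57, which binds the methylated hexamer TGCCGC. The hexamer was counted on both strands within 1 kb of each start. It occurred 10 times at Snurf, 6 times each at Peg3, Nnat and Peg13, 5 times each at Nap1l5 and Airn, 3 times at Mcts2, 2 times at Peg10 and 0 times at Zrsr1 and Impact. Thus 8 of 10 windows held it, against 55.8% of the 18444 promoters tested and 28.6% of all 55450, and 5 or more copies were present in 6 of 10 and in 1.66% of those tested. All 3 copies at Mcts2 lie in the fragment printed above, and the second Nap1l5 fragment and the Snurf fragment hold 1 each.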

How the data were processed

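Sperm DNA of 10 mice (groups of 2 and 3 in each generation) had been sequenced by RRBS. Per the labels, reads were processed with CASAVA 1.8.2, Trim Galore 0.3.3, cutadapt 1.1 and Bismark 0.10.1 against mm10. The values deposited by the authors are read counts, methylated and unmethylated, at single CpG cytosines, without normalization. The members, gene lists and tests were chosen with earlier results of these data known.

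Both strands of a CpG were summed, CpGs under 10 reads were left out, and all deposited positions were checked to be CpGs in GRCm38. Promoters were windows of 1000 bp on either side of GENCODE M21 gene starts with at least 3 CpGs. CpGs were compared by a logistic likelihood ratio test on pooled reads, with q-values by Benjamini-Hochberg (q under 0.01, difference of at least 25 points). The thresholds were those of the study's methods. The study itself used the program methylKit, which was not run here, so its call counts can differ. The read minimum was applied here after summing the strands, and on each strand before summing only as an alternative. The model holds no term for variation between animals. Promoters were compared by limma 3.58.1 (R 4.3.3) on log2((methylated + 1)/(unmethylated + 1)) with all 10 animals in 1 fit, an adjusted p under 0.05 (Benjamini-Hochberg over all promoters), and an exact permutation test for single levels. The p-values measure the spread between these few animals. Calculations used Python 3.11.15, numpy 2.4.6, pandas 2.3.3 and scipy 1.17.1, and the tests were tested on simulated data.

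All 10 genes are named with every sample. CpGs are named if they have the highest or lowest mean of a gene or were called, and other genes if they are on a fixed list or among the 5 promoters most like the members. Alternatives were the read minimum (5 and 20, or 10 on each strand), window (500 and 2000 bp), any transcript start, thresholds, overdispersion, limma per CpG, on percentages or per generation, other averages over CpGs, promoters with at least 1 CpG, removal of CpGs above the 99.9th percentile of coverage, and leaving out each animal. Upper limits for a level of 0 use 3 counts.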

Additional observations from a re-analysis of the deposited data

How the results depend on the processing

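The number of CpGs of the imprinted promoters called in the P-generation was 0, and leaving out 1 animal at a time gave 0 to 11. The 11 were found without C14, when C8 alone stood for the vehicle group and 4.43% of all CpGs were called, and with a threshold of 10 points 2 were called, against 2.13% of all. In the F3-generation 1 CpG was called, with 0 to 1 on leaving out an animal (0 without F3C9), 0 with overdispersion, 0 by limma per CpG and 5 at 10 points, against 0.0686, 0, 0 and 0.953% of all CpGs. The mean difference over the promoters in the P-generation, 0.495 points, ran from -4.99 without C14 to 6.39 without C8, where the CpGs were chosen anew, and in the F3-generation from -2.74 to 1.08. The median promoter level was 13.6%, 12.3 to 13.9% on leaving out an animal and 12.6 to 14.5% under the other settings. The number of imprinted promoters past the limma test was 0 in each setting run, while 552 of all 18455 promoters passed in the P-generation without C14 and 1 without D10, and at a minimum of 20 reads 8 of 10 could be tested. Of 119 alternatives of these results, 111 stayed and 8 moved. A call count stayed if it equalled the main count. A level or difference stayed if it changed by less than the spread between animals. For the mean differences this spread was 4.94 points in the P-generation and 2.16 in the F3-generation, more than the differences themselves. Changes of sign of the mean differences could therefore count as stayed. Of 467 for single promoters 24 moved, among them the level of Impact, 8.52% when any transcript start was used. No paired analysis of decitabine against vehicle was possible because these groups share no replicate numbers. With 10 reads a CpG has steps of 10 points, and a group of 2 vehicle animals, one of them C8, limits each comparison of the P-generation.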
